A study of Mus musculus with 6 samples.

Results

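The genes described here are 42 cell cycle and proliferation genes, read from a count table of 25701 genes by their symbols. They fall into 17 genes of S phase and DNA replication, 20 genes of G2 and mitosis (G2/M), the 3 D-type cyclins and 2 inhibitors of cyclin-dependent kinases (CDKs). The counts come from bulk RNA sequencing of CD11b+ cells that were taken with magnetic beads from tumors grown in MCT2 CO or MCT2 KO mice, with 3 samples in each group. MCT2, encoded by Slc16a7, is a monocarboxylate transporter that carries pyruvate and lactate across membranes. All mice carried the same MCT2 loxP/loxP; Cre+ genotype on a C57BL/6 background, in which Cre is active throughout the body once tamoxifen is given. The KO group had received tamoxifen at 8 weeks of age and the CO group only its vehicle, so tamoxifen and loss of MCT2 came together and cannot be told apart. TC1 cells, a mouse lung epithelial tumor line, were placed under the skin of the flank 2 days after tamoxifen, and the tumors were taken on day 24. The tumor cells themselves did not come from the knockout mice, the mice were young males, and the labels name the tissue as lung although the tumors grew in the flank.

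Cells copy their DNA in S phase and divide in M phase, with the gaps G1 and G2 between them. In G1, D-type cyclins activate CDK4 and CDK6, which release E2F factors from the retinoblastoma protein, and E2F then drives genes for cyclin E, for the licensing of replication origins and for the supply of nucleotides. Genes of G2 and mitosis come on later, largely through promoters that hold a CCAAT box, bound by NF-Y, and a cell cycle homology region (CHR), bound by the DREAM complex and by MuvB with B-MYB. CDK inhibitors such as p21 and p27 stop these kinases. In a tumor the tumor cells divide, while macrophages largely arise from monocytes, although macrophages can also proliferate in place.

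All 42 genes were in the table. Of these, 40 had enough counts to be tested, and Tk1 and Prc1 had 0 counts in all 6 samples. In the GRCm38 annotation every exon base of Tk1, the thymidine kinase of the salvage pathway, lies within the span of another listed gene, Gm20708, and every exon base of Prc1, a bundler of the central spindle, lies within Rccd1. The table counts over whole gene spans, so these zeros are no measure of the expression of either gene. For the same reason the values of Ccne2 with Ints8, Ccnd1 with LTO1, Kif20a with Cdc23 and Ccna2 with Exosc9 are uncertain, since 62.9%, 37.6%, 32.3% and 21.1% of their exon bases lie in the span of the neighbour named, and Mcm7 shares 11% of its exon bases in this way. The other members shared 7.68% of their exon bases or fewer.

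Promoter sequences from RefSeq (GRCm38.p6), 250 bases before to 50 bases after the start site, were available for 34 of the 42 genes. They are shown because the S phase and the G2/M genes, which the list keeps apart by function, also differ in these letters, and the rule for membership did not use them. The following stretches are the 170 bases just upstream of the start site of 3 G2/M genes and then of 3 S phase genes, written on the strand of the gene. The printed genes were picked as examples and not by a rule. Capitals mark each match to the CCAAT box (CCAAT, or ATTGG on the other strand), to the CHR (TTTGAA or TTCGAA, with TTCAAA on the other strand) and to an E2F element (TTCCCGC or else TTGGCGC or else TTCGCGC or else TTGCCGC, or its reverse complement), and neighbouring or overlapping matches run together.
Cdk1 (chr10:69352913-69353082, minus strand): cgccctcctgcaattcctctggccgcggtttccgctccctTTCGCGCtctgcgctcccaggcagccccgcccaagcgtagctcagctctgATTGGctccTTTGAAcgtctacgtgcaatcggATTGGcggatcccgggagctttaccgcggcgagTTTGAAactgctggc
Top2a (chr11:99024190-99024359, minus strand): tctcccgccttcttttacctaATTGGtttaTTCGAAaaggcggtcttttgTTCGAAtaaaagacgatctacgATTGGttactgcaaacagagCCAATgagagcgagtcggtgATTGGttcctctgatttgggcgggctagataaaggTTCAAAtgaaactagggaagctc
Cdc20 (chr4:118437344-118437513, minus strand): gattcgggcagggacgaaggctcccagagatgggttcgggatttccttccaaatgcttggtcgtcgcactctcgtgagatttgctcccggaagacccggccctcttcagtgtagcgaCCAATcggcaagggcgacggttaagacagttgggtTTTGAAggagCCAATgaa
Mcm5 (chr8:75109339-75109508, plus strand): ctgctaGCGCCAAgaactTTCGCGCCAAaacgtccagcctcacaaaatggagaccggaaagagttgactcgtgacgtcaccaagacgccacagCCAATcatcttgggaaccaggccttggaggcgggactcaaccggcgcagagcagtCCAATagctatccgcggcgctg
Mcm6 (chr1:128359706-128359875, minus strand): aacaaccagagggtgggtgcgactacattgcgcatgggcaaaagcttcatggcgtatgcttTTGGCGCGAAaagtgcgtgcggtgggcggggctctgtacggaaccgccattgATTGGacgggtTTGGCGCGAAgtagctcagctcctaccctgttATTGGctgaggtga
Rrm1 (chr7:102441525-102441694, plus strand): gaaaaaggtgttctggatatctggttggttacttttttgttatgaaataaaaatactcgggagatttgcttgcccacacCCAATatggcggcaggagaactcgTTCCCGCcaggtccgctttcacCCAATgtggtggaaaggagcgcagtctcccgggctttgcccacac

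In these stretches Cdk1, the kinase that drives mitosis, has 2 CCAAT boxes, 2 CHR matches and 1 E2F match. Top2a, the topoisomerase that untangles sister chromatids, has 4 CCAAT boxes and 3 CHR matches. Cdc20, an activator of the anaphase-promoting complex, has 2 CCAAT boxes and 1 CHR match. The stretches of Mcm5 and Mcm6, subunits of the replicative helicase, have no CHR match and hold 3 and 4 E2F matches, some of which overlap. Each of them also has 2 CCAAT boxes. Rrm1, the large subunit of ribonucleotide reductase, has 2 CCAAT boxes and 1 E2F match.

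Over the whole 300 bases, 13 of the 17 G2/M promoters (76.5%) held a CHR, compared with 3 of the 16 S phase promoters (18.8%) and 19.2% of all 32851 promoters in the table. Some genes had more than 1 promoter, so the 17 came from 16 G2/M genes and the 16 from 15 S phase genes. Prc1 was counted with 2 promoters, each of which held a CCAAT box and a CHR. The E2F element stood in 9 of the 16 S phase promoters (56.2%), in 3 of the 17 G2/M promoters (17.6%) and in 9.57% of all promoters. CCAAT was common in both, with 15 of 17 G2/M promoters (88.2%) and 10 of 16 S phase promoters (62.5%), against 37.4% of all promoters. Both CCAAT and a CHR were found in the same promoter in 13 of 17 G2/M genes' promoters and in 7.52% of all promoters. Other genes of the same phases gave like shares, with a CHR in 37 of 49 promoters of other G2/M genes (75.5%) and an E2F element in 22 of 35 promoters of other S phase genes (62.9%). Mki67, whose stretch is not printed, held 3 CCAAT boxes, 2 CHR matches and 1 E2F match. The printed genes do not stand for all members. Pcna held only a CCAAT box, and Mcm2 and Cdc45 held a CHR but no E2F element. In Cenpf, Bub1, Aurka and Plk1 the CHR lay after the start site. Both E2F matches of Cdt1 lay after its start site. These matches are descriptions of letters within the window and were not tested for binding.

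**Figure D1:**
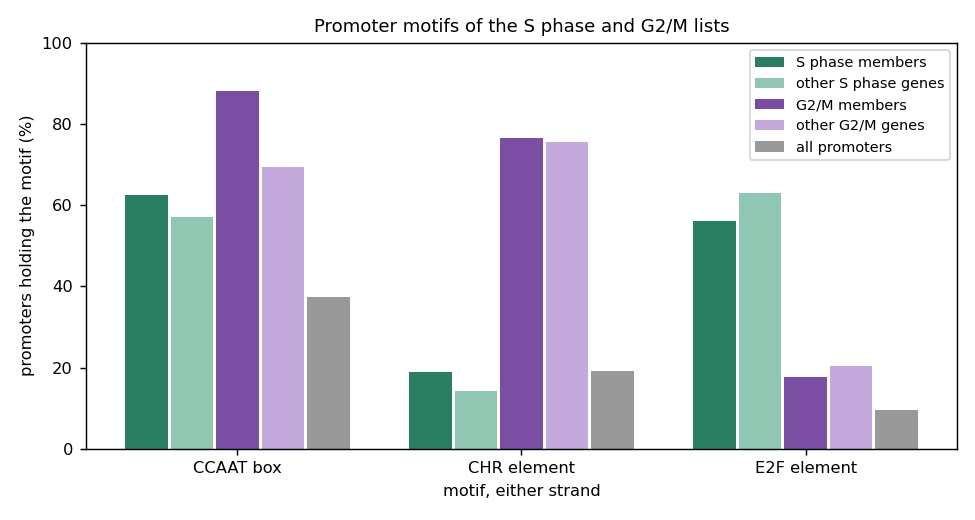
Share of promoters (%, vertical axis) that hold a CCAAT box, a CHR or an E2F element on either strand, for the S phase members, other S phase genes, the G2/M members, other G2/M genes and all promoters of the RefSeq table. The CHR bars are high for the G2/M lists (76.5% and 75.5%) and the E2F bars for the S phase lists (56.2% and 62.9%), against 19.2% and 9.57% of all promoters.

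The libraries held 24863611 to 31713704 counts. Values are given below as CPM, read counts brought to a common library size with TMM scaling factors, and the difference between groups as the log2 fold change of KO over CO with its standard error (SE), from edgeR's quasi-likelihood test over 13485 genes with enough counts. A gene was called where its adjusted p was at most 0.05 and its log2 fold change at least 0.58 in size. Slc16a7, the targeted gene, stood at 16, 11 and 11.2 CPM in the CO samples and 8.22, 4.97 and 5.34 CPM in the KO samples. Its groups did not overlap, and its log2 fold change of -1.05 (SE 0.24, adjusted p = 0.370) did not pass the edgeR test, while in DESeq2 on all genes it did, with an adjusted p of 0.00908. Nothing in the labels says that the samples came from separate animals, so the p-values measure the spread between these samples.

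Macrophage and monocyte markers were present in all samples, and 12 of the 13 genes were tested. All 13 summed to 5641 to 7447 CPM in CO and 6717 to 10490 CPM in KO. Itgam, which encodes CD11b itself, had at most a few reads, and 99.1% of its exon bases lie within another listed gene. Markers of other cells were also measured. The 10 fibroblast and mesenchymal genes summed to 2520 to 3932 CPM in CO and to 2189 to 2279 CPM in KO, without overlap. Of these genes 9 were lower in KO, with a median log2 fold change of -0.58, or -0.24 without CO replicate 3. In edgeR 6 had an unadjusted p under 0.05, all lower in KO, against 5.6% of all genes. In 4 genes all KO samples lay below all CO samples, against 8.77% of all genes. DESeq2 on the filtered genes called 2 of them and edgeR 0. The paper states that lineage tracing or copy-number data would be needed to tell TC1 cells from host mesenchymal cells for certain. Whether these mesenchymal transcripts came from tumor or host cells therefore cannot be told here. Of the epithelial markers only Epcam and Cdh1 passed the filter, and 6 keratin and claudin genes did not. All 8 epithelial genes summed to 14.5 to 34.0 CPM. Of the 8 neutrophil markers tested of 12, 7 were higher in KO, with a median log2 fold change of 1.7, and 6 had an unadjusted p under 0.05 and all KO samples above all CO samples, against 3.77% and 7.07% of all genes. None of these passed the edgeR test, while DESeq2 called 5 of them (S100a8, S100a9, Retnlg, Mmp8 and Ngp). The mean centred log2 CPM of the 8 tested markers was -0.94 to -0.49 in CO and 0.21 to 1.57 in KO. However, the summed level of all 12, most of which is Csf3r, overlapped with 83.6 to 104 CPM in CO and 70.0 to 188 CPM in KO. The 6 B cell markers tested of 8 were all lower in KO, with a median log2 fold change of -0.68, and 2 of them had an unadjusted p under 0.05 and all KO samples below all CO samples, against 5.6% and 8.77% of all genes. All 8 B cell markers summed to 78.1 to 90.2 CPM in CO and 23.7 to 109 CPM in KO. T cell markers summed to 57.1 to 83.6 CPM in CO and 28.0 to 119 CPM in KO, NK cell markers to 48.2 to 82.4 and 59.2 to 111 CPM, and endothelial markers to 100 to 105 and 89.3 to 145 CPM. The part of these cells in the results below was not tested. In such bulk samples fewer dividing cells and less RNA per dividing cell cannot be told apart, nor can the cell type that carried the transcripts.

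Proliferation genes were plentiful in both groups and none was called different between them. By edgeR 0 of the 40 tested members passed, as did 0% of all 13485 genes. By DESeq2 0 of 40 members passed as well, against 0.586% of all genes on the same filtered table and 0.584% when all genes with a count were entered. The adjusted p-values of the S phase members ran from 0.457 to 0.997 and those of the G2/M members from 0.643 to 0.991 in edgeR's quasi-likelihood test. Only Cdt1 had an unadjusted p under 0.05, 1 of 40 members against 9.37% of all genes. Only Cdt1 had groups that did not overlap, again 1 of 40 against 15.8% of all genes.

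The precision of the members was high enough to bound the differences. For 39 of the 40 members the whole 95% interval of the log2 fold change lay within 0.58 of zero in both directions, which held for 65.8% of all genes tested. The exception was Cdt1. The lowest bound over all members was -0.61 and the highest 0.53, and the median SE was 0.11, compared with 0.13 over all genes. The highest sample exceeded the lowest by a median of 1.3-fold in the members and 1.36-fold in all genes.

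**Figure D2:**
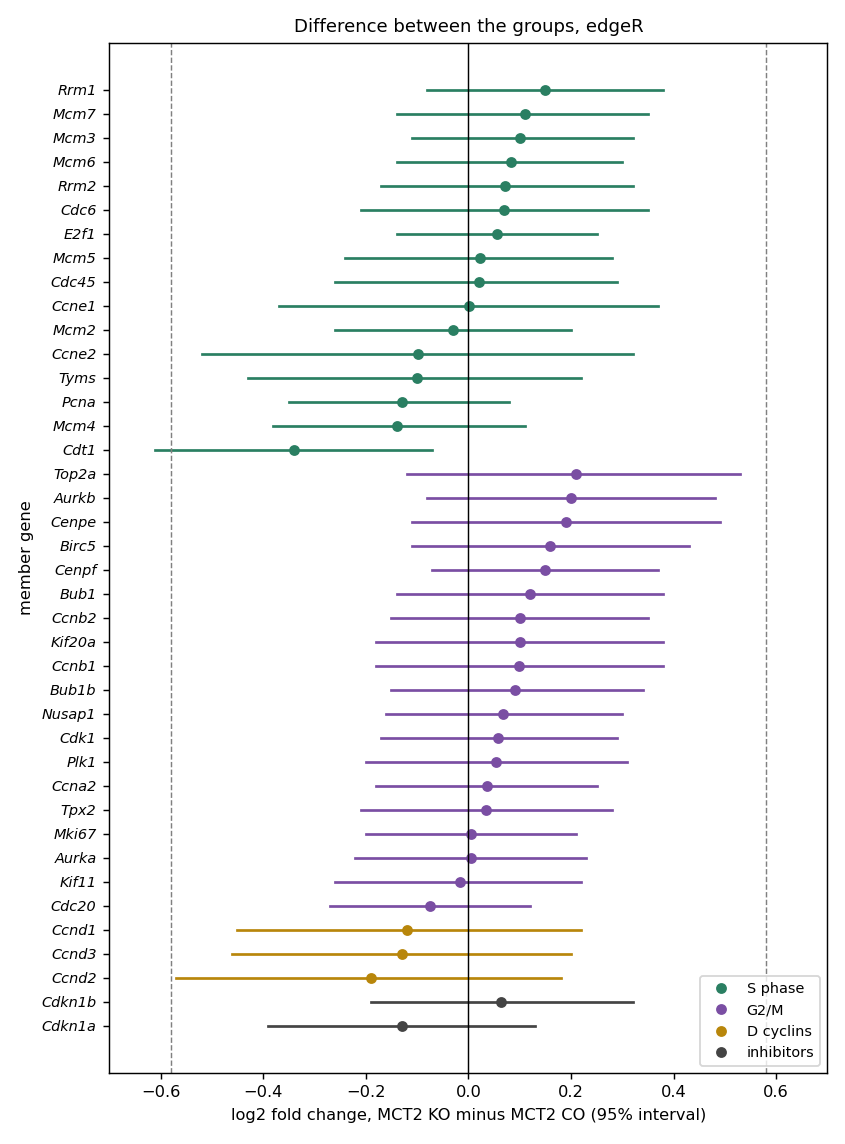
Log2 fold change of KO over CO (horizontal axis) with its 95% interval from edgeR for the 40 tested members, grouped as S phase, G2/M, D-type cyclins and inhibitors. Dashed lines stand at 0.58 on either side of zero, and of all intervals only that of Cdt1, from -0.61 to -0.07, reaches beyond one of them and leaves out zero.

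The 16 S phase members showed no common direction. Of these, 10 had a log2 fold change above zero and 6 below, with a median of 0.022, compared with a median of 0.00037 over all genes, of which 50.1% lay above zero. Their summed level was 2468, 2628 and 2717 CPM in the CO samples and 2412, 2799 and 2581 CPM in the KO samples. The KO samples thus held both the lowest and the highest sum, and the groups overlapped.

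Cdt1 loads the helicase onto origins and is normally destroyed once S phase begins. It lies on chromosome 8 (chr8:122568015-122573554, plus strand, GRCm38). Cdt1 stood at 89.2, 97.5 and 116 CPM in CO and at 85.7, 81.2 and 72.2 CPM in KO. All KO samples were below all CO samples, although KO replicate 1 came within a few CPM of CO replicate 1. The log2 fold change was -0.34 (SE 0.12, 95% interval -0.61 to -0.07) with an adjusted p of 0.457 in edgeR, and an exact two-sided permutation test gave p = 0.1, the smallest that 3 against 3 samples allow. Leaving out single samples moved the log2 fold change between -0.42 and -0.23. The mesenchymal marker sum was also highest in CO replicate 3, and its part in the result was not tested.

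The subunits of the MCM helicase, which unwinds DNA at the fork, stood close together in both groups. Mcm6 had 269, 266 and 255 CPM in CO and 253, 307 and 277 CPM in KO, a log2 fold change of 0.08 (SE 0.095). Mcm4 had 266, 266 and 312 CPM in CO and 247, 281 and 240 CPM in KO, a log2 fold change of -0.14 (SE 0.10). In both the groups overlapped. Mcm3 had 206, 236 and 222 CPM in CO and 222, 256 and 235 CPM in KO (log2 fold change 0.10). Mcm7 had 148, 165 and 179 CPM in CO and 159, 193 and 178 CPM in KO (log2 fold change 0.11). Mcm2 and Mcm5 had log2 fold changes of -0.03 and 0.02, and the adjusted p-values of the 6 MCM genes ran from 0.715 to 0.961 in edgeR.

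Pcna, the clamp that holds DNA polymerase on its template, was the S phase member with the highest level in CPM. It was also highest per length of exon, although the counts were made over whole gene spans. It had 383, 386 and 442 CPM in CO and 359, 358 and 388 CPM in KO. Here 2 KO samples lay below every CO sample and the other lay inside their range, and the log2 fold change was -0.13 (SE 0.095, adjusted p = 0.688 in edgeR). Rrm1 had 243, 247 and 225 CPM in CO and 236, 288 and 272 CPM in KO. Its log2 fold change of 0.15 was the highest of the S phase members, with an SE of 0.10. The small subunit gene Rrm2 had a log2 fold change of 0.07 and Tyms, the thymidylate synthase, -0.10.

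Ccne1 encodes cyclin E1, the partner of CDK2 at the entry to S phase. It stood at 40.2, 50.3 and 45.0 CPM in CO and at 35.3, 54.3 and 45.8 CPM in KO. The KO samples enclosed the CO samples and both means were 45.2 CPM. The log2 fold change was 0.0021 (SE 0.16, adjusted p = 0.997 in edgeR). Ccne2, the second cyclin E gene, had 23.8 to 26.7 CPM in CO and 17.1 to 29.7 CPM in KO. Cdc6, the licensing factor that works with Cdt1, and Cdc45, part of the active helicase, had log2 fold changes of 0.07 and 0.02. E2f1, the transcription factor of this phase, had 117, 134 and 127 CPM in CO and 126, 132 and 136 CPM in KO, a log2 fold change of 0.06 with the lowest SE of these genes (0.083).

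The G2/M members leaned to higher values in KO, without any of them passing the test. Of the 19 tested, 17 had a log2 fold change above zero and 2, Kif11 and Cdc20, below. The median was 0.09 and the range -0.075 to 0.21, and no G2/M member had groups that did not overlap. Their summed level was 3092, 3138 and 2908 CPM in CO and 2888, 3527 and 3267 CPM in KO. KO replicate 1 had the lowest sum of all samples and the other KO samples the highest sums. These genes rise and fall together, so the count of 17 does not stand for independent observations. Without KO replicate 2 the median fell to -0.0055, and without KO replicate 1 it was 0.18.

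Mki67, which encodes the nuclear protein Ki-67 and is the usual mark of dividing cells, lies on chromosome 7 (chr7:135689784-135716361, minus strand, GRCm38). It stood at 666, 698 and 649 CPM in CO and at 646, 694 and 682 CPM in KO. The samples differed little, by 1.08-fold from the lowest to the highest, and the groups overlapped over nearly the whole range. The log2 fold change was 0.006 with a 95% interval of -0.20 to 0.21 and an adjusted p of 0.988 in edgeR. Top2a lies on chromosome 11 (chr11:98992943-99024189, minus strand, GRCm38) and stood at 577, 581 and 428 CPM in CO and at 548, 669 and 612 CPM in KO. CO replicate 3 was far below the others, and Top2a had the highest log2 fold change of the members, 0.21 (SE 0.14, adjusted p = 0.679 in edgeR). Without single samples it ran from 0.07 to 0.29.

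Aurkb and Birc5 encode the Aurora B kinase and survivin, parts of the chromosomal passenger complex. Aurkb had 61.7, 69.6 and 54.2 CPM in CO and 63.5, 80.3 and 69.3 CPM in KO, a log2 fold change of 0.20 (SE 0.12). Birc5 had a log2 fold change of 0.16. Aurka, the kinase of the spindle poles, had 0.0053, and its activator Tpx2 had 213, 225 and 222 CPM in CO and 192, 246 and 238 CPM in KO with a log2 fold change of 0.04. In all 4 the groups overlapped.

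Cenpe, a kinesin motor of the kinetochore, had 151, 143 and 128 CPM in CO and 134, 185 and 164 CPM in KO. Its log2 fold change was 0.19 (SE 0.13). Cenpf, another kinetochore protein, had 103, 105 and 97.5 CPM in CO and 99.9, 124 and 114 CPM in KO, a log2 fold change of 0.15 (SE 0.096). In both genes KO replicate 1 lay within the range of the CO samples and the other KO samples lay above them. Kif11, the motor that pushes the spindle poles apart, had 170, 160 and 157 CPM in CO and 141, 180 and 161 CPM in KO, with a log2 fold change of -0.02. Cdc20 had 85.2, 85.0 and 90.5 CPM in CO and 75.2, 88.5 and 83.7 CPM in KO, a log2 fold change of -0.075 (SE 0.086).

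The cyclins that partner Cdk1 lay in the same narrow range, with log2 fold changes of 0.04 for Ccna2, 0.10 for Ccnb1 and 0.10 for Ccnb2, and 0.06 for Cdk1 itself. The spindle checkpoint genes Bub1 and Bub1b had 0.12 and 0.09. Plk1, the polo-like kinase, had 0.05, the kinesin gene Kif20a 0.10 and Nusap1, which binds spindle microtubules, 0.07. The adjusted p-values of these 9 genes ran from 0.774 to 0.922 in edgeR.

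**Figure D3:**
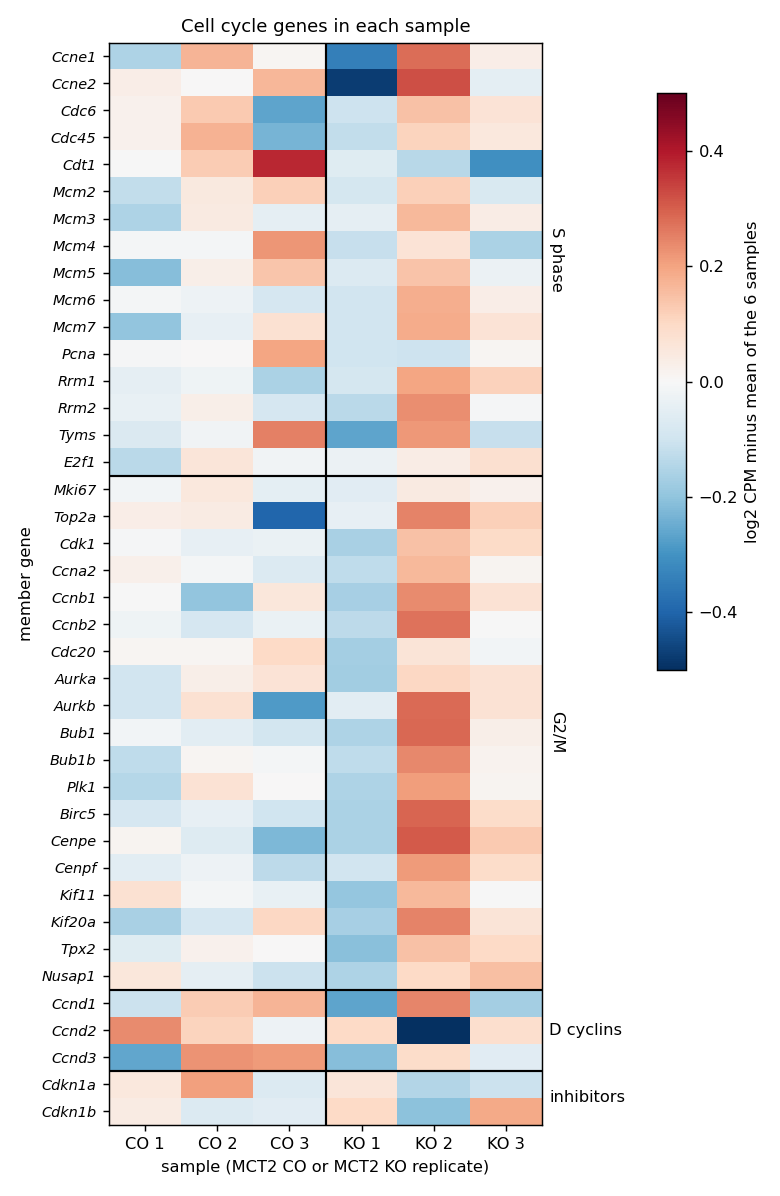
Log2 CPM of each tested member (rows) minus its own mean over the 6 samples (columns), with red above and blue below the mean. KO replicate 2 is red in all 19 G2/M rows and KO replicate 1 is blue in all 19, while the CO samples are paler and mixed.

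KO replicate 2 was the highest of the 6 samples in 16 of 19 G2/M members and 9 of 16 S phase members, and in 26 of all 40 members, while the same sample was highest in 20.4% of all genes. KO replicate 1 was the lowest in 13 of 19 G2/M members, 5 of 16 S phase members and 19 of all 40, against 18.7% of all genes. KO replicate 1 was above the gene's mean in 0 of the 35 S phase and G2/M members. KO replicate 2 was above it in 14 of 16 and 19 of 19, and KO replicate 3 in 9 of 16 and 17 of 19.

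When each member's log2 CPM was centred on its own mean and averaged over the list, the G2/M level was -0.034, -0.018 and -0.065 in the CO samples and -0.14, 0.20 and 0.06 in the KO samples. The S phase level was -0.067, 0.044 and 0.042 in CO and -0.14, 0.13 and -0.014 in KO. The CO samples lay within a narrow band, KO replicate 1 below it and KO replicate 2 above it in both lists. The G2/M level minus the S phase level ran from -0.11 to 0.033 in CO and reached 0.074 in KO, with overlap. Other S phase and G2/M genes showed the same order of the KO samples. KO replicate 2 was highest in 22 of 43 and 30 of 52 of them, and KO replicate 1 lowest in 21 of 43 and 30 of 52.

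KO replicate 1 also had the highest sum of macrophage markers, 10490 CPM against 5641 to 7447 CPM in the other 5 samples, and the highest neutrophil level, a mean centred log2 CPM of 1.57. KO replicate 2 had the lowest T cell and B cell sums, 28.0 and 23.7 CPM. Its centred neutrophil level of 0.46 lay above every CO sample, while its neutrophil sum of 70.0 CPM was the lowest of all samples. The part of these markers in the results was not tested. Without KO replicate 1, 5 members had an unadjusted p under 0.05 (Cenpf, Birc5, Cenpe and Rrm1 higher in KO, Cdt1 lower), against 9.12% of all genes, and 17 members had groups that did not overlap, against 28.5% of all genes. Without KO replicate 2 these counts were 2 (Ccnd1 and Cdt1, both lower in KO) and 7, against 11.6% and 31.7% of all genes. Without both CO replicate 3 and KO replicate 2, a setting chosen after seeing the data, they were 0 and 8, against 9.25% and 40.3%. No member was called in any of these fits.

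**Figure D4:**
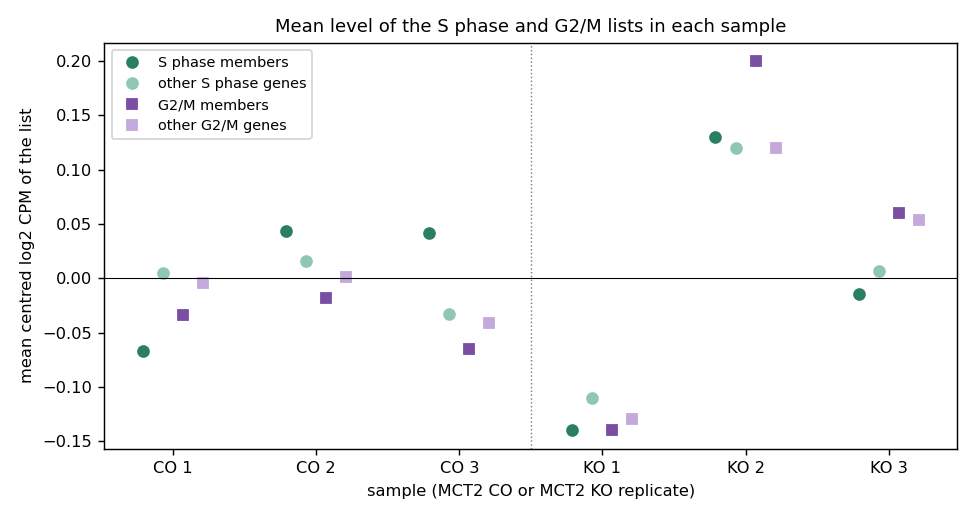
Mean centred log2 CPM (vertical axis) of the S phase members, other S phase genes, G2/M members and other G2/M genes in each sample, 1 point per list and sample. All 4 lists are lowest in KO replicate 1 and highest in KO replicate 2, and the CO samples lie between them.

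The 3 D-type cyclins, which couple growth signals to the cycle in G1, all had log2 fold changes below zero and none passed the test. Ccnd1 had 204, 240 and 247 CPM in CO and 183, 260 and 195 CPM in KO, with a log2 fold change of -0.12 (SE 0.15). Ccnd2 had 102, 93.6 and 85.2 CPM in CO and 92.8, 60.8 and 91.9 CPM in KO, with -0.19 (SE 0.16). KO replicate 2 was the highest sample for Ccnd1 and the lowest for Ccnd2. Ccnd3 had 55.8, 78.0 and 77.5 CPM in CO and 57.6, 71.2 and 64.2 CPM in KO, with -0.13 (SE 0.14). The adjusted p-values ran from 0.740 to 0.827 in edgeR, and in each gene the groups overlapped. Per kilobase of merged exon, Ccnd1 had the highest level of the 3 with 47.0 CPM, followed by Ccnd2 with 9.32 and Ccnd3 with 7.68 CPM. This scaling sets counts over whole gene spans against exon lengths, so levels compared between genes are uncertain.

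Cdkn1a encodes p21, the CDK inhibitor that p53 induces, and had the highest level of all members in CPM. Per kilobase of merged exon it had 236 CPM, against 161 for Pcna, 74.8 for Mcm4 and 66.8 for Mki67, with the same limit on comparing genes. It stood at 867, 964 and 796 CPM in CO and at 871, 755 and 776 CPM in KO. KO replicate 1 was within the CO range and the other KO samples below it, and the log2 fold change was -0.13 (SE 0.11, adjusted p = 0.749 in edgeR). Cdkn1b, which encodes p27, had 65.3, 60.5 and 61.0 CPM in CO and 68.0, 55.1 and 72.3 CPM in KO. Its KO samples lay on both sides of the CO samples, with a log2 fold change of 0.06 (SE 0.11).

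**Figure D5:**
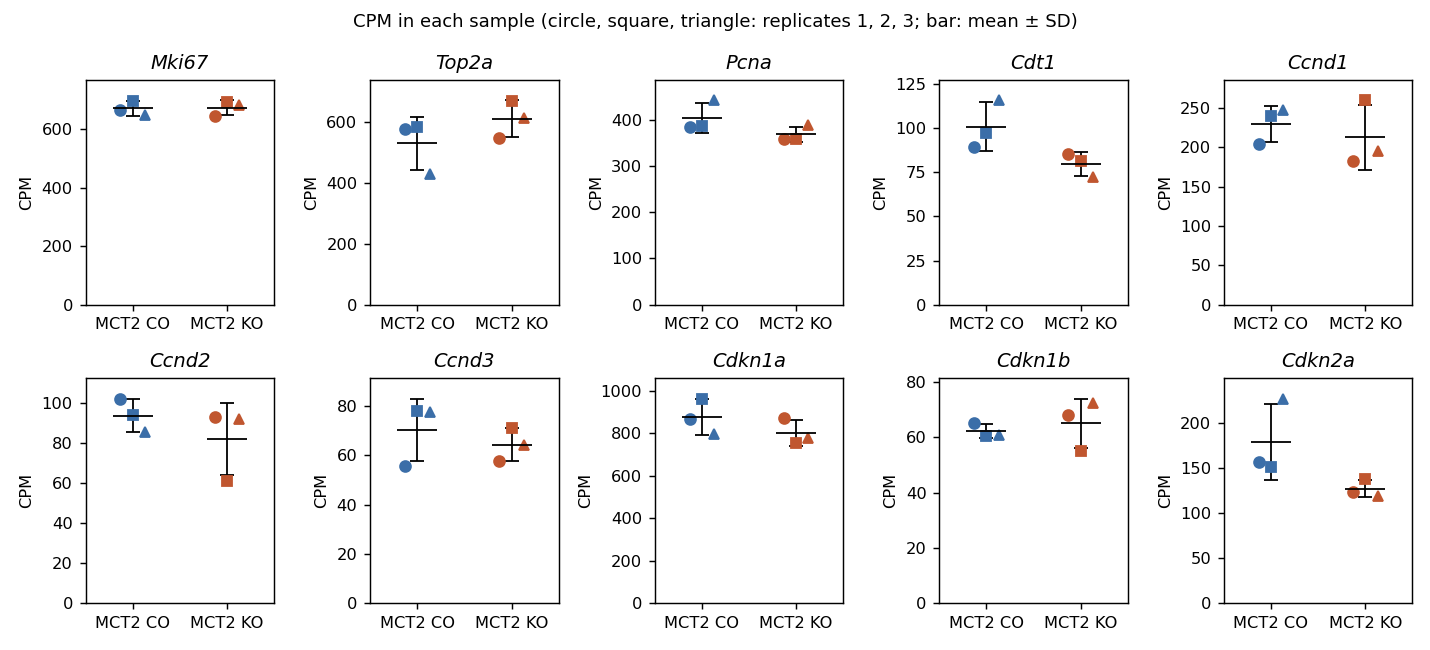
CPM in each sample (vertical axes start at 0) for 9 members and Cdkn2a, with replicates 1, 2 and 3 as circle, square and triangle and the mean ± SD (n = 3) as bars. The groups overlap in 8 of the panels and are apart in Cdt1 (means of 101 CPM in CO and 79.7 CPM in KO) and Cdkn2a (179 and 127 CPM).

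Genes of the same pathway outside the list were read from the same fit. Of 43 other S phase genes, 23 had a log2 fold change above zero and 20 below (median 0.014). Fen1, the flap endonuclease of lagging strand synthesis, and Pole, the leading strand polymerase, had log2 fold changes of 0.23 (SE 0.091) and 0.25 (SE 0.096), and Slbp, which binds histone messages, had -0.27 (SE 0.085). These were the 3 with an unadjusted p under 0.05, and in each the groups did not overlap. Over all genes 3.77% had such a p with a higher level in KO and 5.6% with a lower level. All KO samples lay above all CO samples in 2 of the 43 and below them in 1, against 7.07% and 8.77% of all genes. Their adjusted p-values in edgeR were 0.513, 0.497 and 0.436.

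Of 52 other G2/M genes, 33 lay above zero and 19 below (median 0.038). Only 2 had an unadjusted p under 0.05, both lower in KO, against 5.6% of all genes. All KO samples lay above all CO samples in 2 of the 52 and below them in 2, against 7.07% and 8.77% of all genes. Ube2c, the ubiquitin-conjugating enzyme of the anaphase-promoting complex, had 129, 112 and 122 CPM in CO and 90.5, 92.7 and 96.5 CPM in KO. All KO samples lay well below all CO samples, and the log2 fold change was -0.38 (SE 0.082, adjusted p = 0.370 in edgeR). In DESeq2 the adjusted p was 0.0358 on the filtered genes and 0.0511 on all genes, with a fold change short of the threshold. Of its exon bases 62.8% lie within Tnnc2, so its counts are uncertain. Cks2, which binds CDKs, had 45.2, 45.0 and 57.3 CPM in CO and 35.7, 38.2 and 38.5 CPM in KO, a log2 fold change of -0.39 (SE 0.11, adjusted p = 0.426 in edgeR). Kif22, a chromosome-binding kinesin, had 0.19 (SE 0.090), with all KO samples above all CO samples.

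The 19 CDKs, pocket proteins, E2F factors and their regulators had a median log2 fold change of -0.0013, with 9 above zero and 10 below. Myc, which drives growth and entry into the cycle, was the only one with an unadjusted p under 0.05. It had 120, 137 and 174 CPM in CO and 120, 114 and 96.0 CPM in KO. CO replicate 3 was high, the groups overlapped, and the log2 fold change was -0.38 (SE 0.15, adjusted p = 0.502 in edgeR). Without CO replicate 3 its log2 fold change was -0.22, and without that sample, or without KO replicate 3, none of the 19 genes had such a p. All KO samples lay below all CO samples in E2f3 and Cdk6 (-0.15 and -0.11) and above them in Cdk7, part of the kinase that activates CDKs, and Rbl2, the pocket protein p130 (0.08 and 0.12), which is 2 of 19 genes each way against 8.77% and 7.07% of all genes. Cdk7 and Rbl2 fall outside the rule for named genes and were chosen after their values were seen. Cdk4, the partner of the D-type cyclins, had 0.05. Of the exon bases of Rbl2 39.5% lie within Aktip, and of those of Cdk4 19.7% within Tspan31, so their counts are uncertain.

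The other CDK inhibitors had log2 fold changes below zero in 5 of 5 genes, against 49.9% of all genes, with a median of -0.50, or -0.29 without CO replicate 3. Of these, 3 had an unadjusted p under 0.05 with all KO samples below all CO samples, against 5.6% and 8.77% of all genes. Cdkn2a, the locus of p16 and p19ARF, had 157, 151 and 227 CPM in CO and 123, 138 and 119 CPM in KO. Its log2 fold change was -0.50 (SE 0.16, adjusted p = 0.436 in edgeR). Cdkn2b, which encodes p15 beside it on chromosome 4, had 26.8, 27.5 and 38.0 CPM in CO and 20.0, 24.0 and 21.4 CPM in KO, also with -0.50 (SE 0.15, adjusted p = 0.433 in edgeR). Without CO replicate 3 the values of Cdkn2a and Cdkn2b were -0.29 and -0.31.

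Cdkn1c, which encodes the imprinted inhibitor p57, had 3.50, 4.31 and 6.89 CPM in CO and 2.73, 1.41 and 2.09 CPM in KO. Its log2 fold change was -1.25 (SE 0.33), with an adjusted p of 0.396 in edgeR, 0.0513 in DESeq2 on the filtered genes and 0.0439 in DESeq2 on all genes, so that it was called in the last setting alone. In all 3 genes CO replicate 3 was the highest sample. That sample also had the highest mesenchymal marker sum, 3932 CPM against 2189 to 2736 CPM in the others, and the part of those markers in the result was not tested. Cdkn2c and Cdkn2d, which encode p18 and p19INK4d, had log2 fold changes of -0.06 and -0.22, with overlap.

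Of 14 targets of p53, 11 lay below zero, against 49.9% of all genes, and 3 above, with a median log2 fold change of -0.18. Aen, a nuclease of apoptosis, had 81.8, 91.3 and 85.4 CPM in CO and 65.4, 66.1 and 71.7 CPM in KO. Its groups were well apart, with a log2 fold change of -0.35 (SE 0.081, adjusted p = 0.370 in edgeR). Bbc3, which encodes the death protein PUMA, had 37.5, 36.4 and 49.0 CPM in CO and 31.2, 15 and 23.9 CPM in KO, with -0.81 (SE 0.25, adjusted p = 0.430 in edgeR). Phlda3, an inhibitor of AKT signalling, had -0.27 (SE 0.10) with overlap, and Plk2, a polo-like kinase, had -0.31 without. These 4 had an unadjusted p under 0.05, all lower in KO, against 5.6% of all genes, and without KO replicate 1 only 2 of the 14 genes had such a p. In 4 of the 14 genes (Aen, Bbc3, Plk2 and Gadd45a, the last 2 named after their values were seen) all KO samples lay below all CO samples, against 8.77% of all genes.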

How the data were processed

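The deposited table holds read counts per gene, which the authors made with STAR 2.7.11b against GRCm38 and featureCounts 2.1.1 after FastQC 0.12.0 and MultiQC 1.28. The libraries were poly-A selected. The length column equals the whole gene span for 100% of genes, and gene spans had the same length in the GENCODE M21 annotation of GRCm38 for 98.1% of genes but the same position for 2.15%. The coordinates and exon overlaps printed here are those of that annotation and of RefSeq, not of the table, whose build is therefore uncertain. The authors used DESeq2 1.18.1. Counts were analysed here with edgeR 4.0.16 in R 4.3.3 (TMM, filterByExpr, quasi-likelihood test, Benjamini-Hochberg adjustment over 13485 genes) and, as alternatives, DESeq2 1.42.0 and limma 3.58.1. The fit was tested on simulated counts. Samples were grouped by their labels, 3 per group, with no covariate. Replicates within a group differed by more than counting noise (chi-square per degree of freedom 14.9 to 74.8). Values per sample are given for the D-type cyclins, the CDK inhibitors, Mki67, Top2a, Pcna and Ccne1. In the S phase and G2/M lists the 3 genes with the highest mean, smallest p, highest and lowest log2 fold change are also included. So are the 3 genes with the smallest p of each pathway list, except Slbp, Fen1, Pole, Kif22, E2f3, Cdk6 and Phlda3. Those exceptions are given by their log2 fold changes. Other members are given by their differences, apart from E2f1, given per sample, and Ccne2, given as ranges, which fall outside this rule. The members and lists were chosen with earlier results of these data known. Motif letters were searched on both strands of the RefSeq promoters.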

Additional observations from a re-analysis of the deposited data

How the results depend on the processing

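No member was called under any setting. The settings were DESeq2, limma-voom, other scalings, other filters, a replicate block, 1 sample left out, the newer form of the edgeR test, and both CO replicate 3 and KO replicate 2 left out, the last 2 chosen after seeing the data. The older form of the edgeR test, planned as an alternative, is the default and so the same as the values reported. Slc16a7 passed only in DESeq2, with a log2 fold change of -1.05 on filtered genes and -1.04 on all genes. With single samples left out it ran from -1.30 to -0.85, the S phase median from -0.039 to 0.094 and the G2/M median from -0.0055 to 0.18. The members at an unadjusted p under 0.05 then numbered 0 to 5 and those without overlap 2 to 17, the highest count without KO replicate 1. Without both CO replicate 3 and KO replicate 2 these counts were 0 and 8, and 40.3% of all genes did not overlap. The log2 fold changes of Mcm6, Mki67, Tpx2 and Ccne1 were then -0.013, -0.039, -0.026 and -0.16. Ccne1 was also below zero in limma-voom (-0.0068) and with the replicate block (-0.015). Leaving out single samples changed the sign of Kif11 (-0.10 to 0.08, and -0.13 without both samples named above), Ccne1 (-0.15 to 0.16), Mki67 (-0.017 to 0.045), Tpx2 (-0.032 to 0.15) and Cdkn1b (-0.0098 to 0.17). The cause was not tested.

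Samples of the same replicate number did not deviate together (correlations of 0.216, -0.247 and -0.161). For samples of different numbers the correlations ran from -0.212 to 0.292. The numbers thus gave no sign of pairing, although with 3 samples a group this check cannot exclude a shared preparation. With the replicate block 0 members were called, the smallest adjusted p of a member in edgeR was 0.625, and the S phase and G2/M medians were 0.026 and 0.085. With 3 samples a group and a median SE of 0.11, differences much smaller than the intervals given were not detectable.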
